A study of Mus musculus with 5 samples.

Results

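Expression of 10 genes that mark macrophages of the heart was compared between hearts of lupus-prone and control mice. Of these, 5 are used as markers of resident tissue macrophages (Lyve1, Folr2, Cd163, Mrc1 and Mertk) and 5 as markers of recruited or general macrophages and monocytes (Itgam, Cd14, Csf1r, Cd68 and Cx3cr1). They were taken by name, as every probe set whose annotated symbol is exactly 1 of these genes, which gave 14 of the 45037 probe sets that are not Affymetrix controls, and 10 of 18193 genes. The resident genes had 6 probe sets and the others 8. Hearts came from 3 female NZB_W mice with lupus nephritis and moderate kidney injury by Austin scoring, and from 2 female NZW mice with healthy kidneys. The NZB_W mice were 12 to 15 weeks old and the NZW mice matched in age, none was treated, and all hearts were bled and perfused with saline. NZB_W is the F1 cross of the NZB and NZW strains, so a parental strain served as the control, and strain and disease cannot be told apart. Total RNA from whole heart was read on Mouse Genome 430 2.0 arrays, 1 per mouse, so the number of arrays limits every value, which is on a log2 scale unless said otherwise.

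The mouse heart holds a population of macrophages that is seeded before birth and renews itself in place, and others that are replaced by blood monocytes. Resident cells carry scavenger and clearance receptors, while monocytes and their recent descendants carry adhesion and danger receptors. The growth factor receptor Csf1r and the lysosomal protein Cd68 occur in both, and several of the markers are not private to macrophages: Lyve1 is also made by lymphatic endothelium, Itgam by neutrophils and natural killer cells, and Cd14 by neutrophils.

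The 5 arrays had medians of 4.62 to 4.68 and pairwise correlations of 0.989 to 0.996 over all probe sets. NZB_W replicate 3 and NZW replicate 2 stood apart in Affymetrix control probe sets. The 5′ minus 3′ difference of beta-actin was -1.31 and -1.19 on them, against -0.88 to -0.89 on the other 3 arrays. That of Gapdh was -0.16 on NZB_W replicate 3 but 0.048 on NZW replicate 2, nearer the 0.11 to 0.17 of the other 3. The 5′ 18S ribosomal RNA probe set read 12.7 on NZW replicate 2 against 9.97 to 10.5 elsewhere. Results were therefore also computed without these arrays. All 8 cardiomyocyte genes examined were above the array medians, with differences from -0.11 to 0.027 on their brightest probe sets. Dimmer probe sets of these genes were not all within that range. Myh6, the alpha cardiac myosin heavy chain, differed by -0.11 on its brightest probe set and by -0.34 (SE 0.53) on the other, with overlap. Tnnt2 differed by -0.014 on its brightest probe set and by -0.0061 on the next. Its dimmest probe set differed by 1.16 (SE 0.23, limma adjusted p = 0.877), with all NZB_W arrays above both NZW arrays. Ryr2, the calcium release channel, differed by -0.068 on its brightest probe set and by -0.26 on the other.

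Between the groups, no macrophage marker passed the test across all probe sets. Among the recruited or general markers, Itgam and Cd14 separated the groups without overlap, whereas the resident markers overlapped in every probe set. At an adjusted p of 0.05, 0 of 14 marker probe sets and 2 of all 45037 (0.00444%) were called by limma. An unadjusted p under 0.05 was reached by 2 of 14, both higher in NZB_W, against 4.02% of all probe sets in either direction, 1.85% higher and 2.17% lower. All NZB_W arrays lay above both NZW arrays in 2 of 14, against 5.76% of all probe sets, and below them in 0 of 14, against 6.53%. The marker difference was above 0 in 11 of 14 probe sets, against 49.1% of all, with a median of 0.31 against a median of 0 over all probe sets. These are whole-heart values, in which fewer cells of a type and less RNA per cell cannot be told apart.

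**Figure D1:**
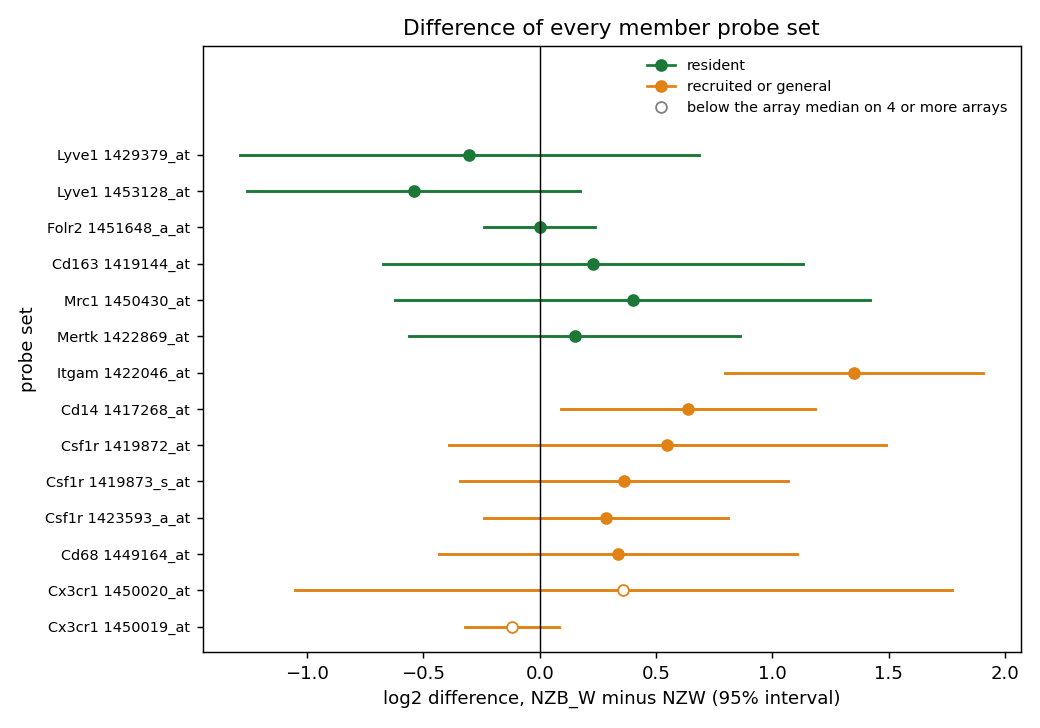
Log2 difference, NZB_W minus NZW, of each of the 14 marker probe sets, with its 95% interval from limma (3 NZB_W and 2 NZW arrays). Only the intervals of Itgam (0.79 to 1.91) and Cd14 (0.090 to 1.18) lie above 0, and the open points are the dim Cx3cr1 probe sets.

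The resident markers gave no common direction. Lyve1, a hyaluronan receptor, read 7.76, 8.27 and 8.15 in NZB_W hearts against 8.87 and 7.86 in NZW hearts on its brighter probe set (1429379_at). NZW replicate 1 held the highest value and NZW replicate 2 lay among the NZB_W arrays, so the groups overlapped. The difference was -0.30 (SE 0.36, 95% interval -1.29 to 0.68, limma adjusted p = 0.896).

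The other Lyve1 probe set (1453128_at) read 7.17, 7.38 and 7.78 in NZB_W hearts against 8.25 and 7.71 in NZW hearts. Here 2 of the 3 NZB_W arrays lay below both NZW arrays. Its difference was -0.54 (SE 0.26, 95% interval -1.26 to 0.17, adjusted p = 0.877). Without NZW replicate 1 the brighter probe set differed by 0.20 and the dimmer one by -0.27, so the direction on the brighter one rested on that array.

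Folr2, a folate receptor carried by resident macrophages, had nearly equal group means. It read 7.13, 7.34 and 7.11 in NZB_W hearts against 7.21 and 7.17 in NZW hearts. Its mean was 7.19 ± 0.127 (SD, n = 3) in NZB_W hearts and 7.19 ± 0.0275 (SD, n = 2) in NZW hearts. The 95% interval of the difference, -0.24 to 0.24, was the second narrowest among the 14 probe sets after that of the dimmer Cx3cr1 one.

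Cd163, the scavenger receptor for haptoglobin-hemoglobin complexes, read 6.98, 7.17 and 7.97 in NZB_W hearts against 7.17 and 7.12 in NZW hearts. A single array, NZB_W replicate 3, stood above the rest. The difference was 0.23 (SE 0.33, adjusted p = 0.905), and -0.068 without that array.

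Mrc1, the mannose receptor CD206, read 7.87, 8.07 and 8.95 in NZB_W hearts against 8.04 and 7.77 in NZW hearts. The first 2 NZB_W values bracketed the upper NZW value and NZB_W replicate 3 was again the highest. The difference was 0.40 (SE 0.37, 95% interval -0.62 to 1.42, adjusted p = 0.879), and 0.073 without NZB_W replicate 3.

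Mertk, a receptor tyrosine kinase for the uptake of dying cells, read 6.39, 6.55 and 7.17 in NZB_W hearts against 6.55 and 6.55 in NZW hearts. The deposited values of NZB_W replicate 2 and of both NZW arrays were identical, and the difference of 0.15 (SE 0.26, adjusted p = 0.919) was -0.082 without NZB_W replicate 3. Such ties within 1e-06 between at least 2 arrays occurred in 6 of 14 marker probe sets and in 63.1% of all, so an SD of 0 over the NZW arrays is a property of the summarised values.

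**Figure D2:**
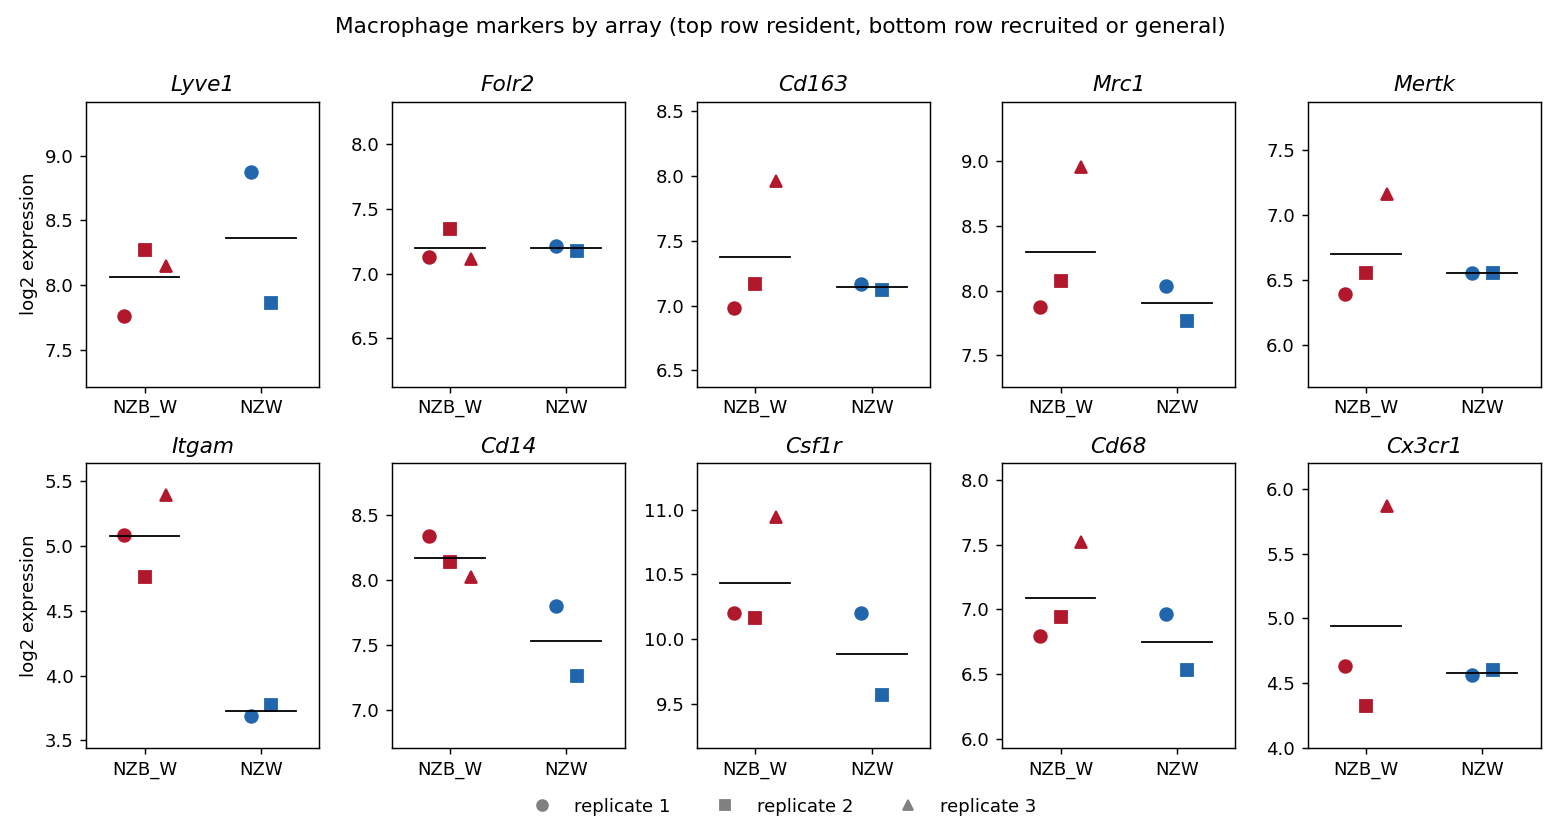
Log2 expression of each marker on its brightest probe set, with 1 point per array, NZB_W left of NZW and the group mean as a bar; every panel spans the same log2 range around its own centre. The NZB_W points lie wholly above the NZW points for Itgam and Cd14, and NZB_W replicate 3 is the highest point for Cd163, Mrc1, Mertk, Csf1r, Cd68, Cx3cr1 and Itgam.

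Itgam, the alpha M chain of the complement receptor 3 integrin, had the largest difference of the 14 probe sets. It read 5.09, 4.76 and 5.39 in NZB_W hearts against 3.69 and 3.77 in NZW hearts. All 3 NZB_W arrays were higher than both NZW arrays, and the NZW values lay close together. The mean was 5.08 ± 0.316 (SD, n = 3) in NZB_W hearts and 3.73 ± 0.0623 (SD, n = 2) in NZW hearts, or 2.55-fold higher in NZB_W. The difference was 1.35 (SE 0.20, limma adjusted p = 0.877). It had 1 probe set, whose NZW values were below the array medians, so it would pass a filter on dim values through the NZB_W arrays alone. The difference ran from 1.20 to 1.51 with any single array left out.

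Cd14, the co-receptor that hands lipopolysaccharide to Toll-like receptor 4, read 8.34, 8.14 and 8.02 in NZB_W hearts against 7.80 and 7.26 in NZW hearts. The groups did not overlap, and NZB_W replicate 3 was the lowest of the NZB_W arrays, unlike for Itgam. The mean was 8.17 ± 0.161 (SD, n = 3) in NZB_W hearts and 7.53 ± 0.381 (SD, n = 2) in NZW hearts, 1.56-fold higher in NZB_W. The difference was 0.64 (SE 0.20, limma adjusted p = 0.877). It was 0.37 without NZW replicate 2 and 0.91 without NZW replicate 1.

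Csf1r, the receptor for colony stimulating factor 1 on which macrophages depend for survival, was measured by 3 probe sets. The brightest (1419872_at) read 10.20, 10.16 and 10.94 in NZB_W hearts against 10.20 and 9.57 in NZW hearts. NZB_W replicate 3 was the highest and NZW replicate 2 the lowest. The other 3 arrays nearly coincided, and the same 2 arrays were extreme on the other 2 probe sets. The differences were 0.55 (SE 0.34), 0.36 (SE 0.26, 1419873_s_at) and 0.29 (SE 0.19, 1423593_a_at), each with an adjusted p of 0.877, and -0.021, 0 and -0.017 without those 2 arrays.

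Cd68, a glycoprotein of late endosomes and lysosomes, read 6.79, 6.94 and 7.52 in NZB_W hearts against 6.97 and 6.53 in NZW hearts. The lower NZB_W values lay between the NZW ones. The difference was 0.34 (SE 0.28, adjusted p = 0.877), 0.12 without NZB_W replicate 3 and -0.10 without that array and NZW replicate 2.

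Cx3cr1, the receptor for the membrane chemokine fractalkine, was dim. Its brighter probe set (1450020_at) read 4.63, 4.32 and 5.87 in NZB_W hearts against 4.56 and 4.60 in NZW hearts, and only NZB_W replicate 3 exceeded its array median. The dimmer probe set (1450019_at) read 3.27 to 3.38 in NZB_W hearts against 3.38 to 3.54 in NZW hearts. The probe sets thus differed in sign, at 0.36 (SE 0.52) and -0.12 (SE 0.073), with adjusted p of 0.904 and 0.877. With these 2 probe sets below a filter that asks for values above the array median on 2 arrays, 12 of 14 probe sets and 9 of 10 genes would remain.

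Promoter windows from RefSeq (GRCm38.p6, from 250 bases before to 50 after the gene start) were found for 7 of the 10 markers, with 8 windows because Folr2 has 2 starts. The core letters bound by PU.1, the transcription factor of the myeloid lineage, were searched as GAGGAA on both strands. They occurred in 3 of 8 windows, those of Itgam, Mrc1 and Cd68, against 28.3% of 32851 windows of the same length. The 3 windows are shown because they hold a match. Itgam, Mrc1 and Cd68 were all highest on NZB_W replicate 3, and of them only Itgam separated the groups. Capitals mark GAGGAA or its reverse complement TTCCTC, and in Cd68 also the C/EBP letters TTGCNNAA.
Itgam promoter, chr7:128062390-128062689, plus strand: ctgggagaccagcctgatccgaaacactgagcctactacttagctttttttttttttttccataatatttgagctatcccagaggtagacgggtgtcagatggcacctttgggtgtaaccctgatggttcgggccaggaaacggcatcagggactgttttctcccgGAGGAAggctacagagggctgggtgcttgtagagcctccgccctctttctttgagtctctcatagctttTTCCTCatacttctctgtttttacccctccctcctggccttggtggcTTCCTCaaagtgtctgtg
Mrc1 promoter, chr2:14229164-14229463, plus strand: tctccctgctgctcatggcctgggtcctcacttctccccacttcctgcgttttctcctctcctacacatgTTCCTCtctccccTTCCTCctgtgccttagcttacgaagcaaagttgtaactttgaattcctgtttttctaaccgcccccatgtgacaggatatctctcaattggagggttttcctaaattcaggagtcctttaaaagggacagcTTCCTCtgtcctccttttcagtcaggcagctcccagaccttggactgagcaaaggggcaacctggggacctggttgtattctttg
Cd68 promoter, chr11:69666121-69666420, minus strand: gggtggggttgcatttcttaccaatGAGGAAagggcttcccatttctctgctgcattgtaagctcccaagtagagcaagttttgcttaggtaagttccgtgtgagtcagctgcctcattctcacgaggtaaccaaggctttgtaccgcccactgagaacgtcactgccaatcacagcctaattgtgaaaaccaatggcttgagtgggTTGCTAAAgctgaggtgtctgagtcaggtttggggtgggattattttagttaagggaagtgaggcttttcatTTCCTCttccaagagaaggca
In Itgam the match begins 84 and 15 bases before the start and at position 33 after it. In Mrc1 it begins 180, 167 and 35 bases before the start, and in Cd68 225 bases before it and at position 30 after it. The longer form GAGGAAGT, which contains the shorter one, was in 0 of 8 windows and in 3.2% of all. TTGCNNAA was in 1 of 8, against 10.8% of all, and TGCTGA, letters bound by MAF factors, in 2 of 8, both of Folr2, against 19.5%. These matches describe the letters and not binding.

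Both marker groups were also summarised by array, and the difference between their group effects was not tested. With each gene taken at its brightest probe set, the median difference was 0.15 over the 5 resident genes and 0.55 over the 5 recruited or general genes, against -0.0012 over all genes. Relative to each gene's mean, the resident median was -0.27, -0.067 and 0.52 in NZB_W hearts against -0.090 and -0.16 in NZW hearts, which overlapped. The recruited or general median was -0.014, -0.011 and 0.73 in NZB_W hearts against -0.11 and -0.64 in NZW hearts, and did not overlap. The margin between NZB_W replicates 1 and 2 and NZW replicate 1 was small.

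The resident minus the recruited median was -0.25, -0.056 and -0.20 in NZB_W hearts against 0.023 and 0.48 in NZW hearts. Every NZB_W array was lower than both NZW arrays. The group difference was -0.43, with a spread of 0.206 (pooled SD), and it was -0.15 without NZB_W replicate 3 and NZW replicate 2. With the pan-leukocyte median of each array subtracted from every gene, 88.0% of all genes had all NZB_W arrays below both NZW arrays, so nothing is read from marker levels on that scale. No test was run on the group difference, since the markers were chosen with results known. NZB_W replicate 3 held the highest value in 9 of 14 marker probe sets, 3 of 6 resident and 6 of 8 recruited or general, against 20.7% of all probe sets. NZW replicate 2 held the lowest value in 6 of 14, against 18.2% of all. The low 5′ minus 3′ beta-actin differences, -1.31 and -1.19, thus stood beside high marker values on NZB_W replicate 3 and low ones on NZW replicate 2. The part of RNA quality in these values was not tested.

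Without NZB_W replicate 3, 8 of the 14 differences were above 0 and 6 below. Without NZB_W replicate 3 and NZW replicate 2, 3 were above 0, 10 below and 1 equal. Itgam and Cd14 remained the 2 probe sets whose NZB_W arrays all exceeded the NZW arrays in both settings, where 10.8% and 24.6% of all probe sets did so. In the second setting 4 marker probe sets had all NZB_W arrays below the NZW array, against 24.8% of all.

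**Figure D3:**
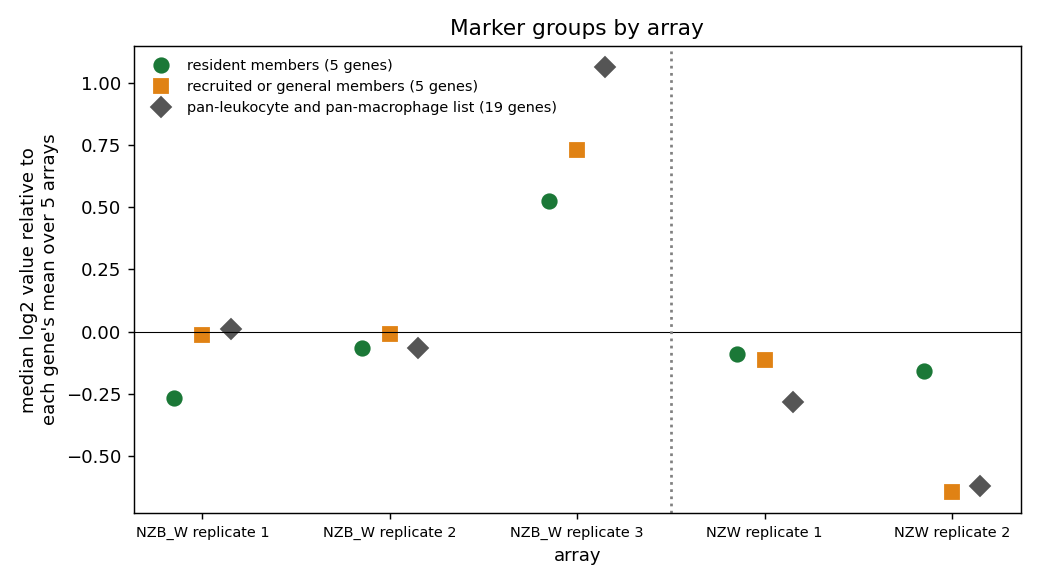
Median log2 value of the resident markers, the recruited or general markers and a list of 19 pan-leukocyte and pan-macrophage genes on each array, relative to each gene's mean over the 5 arrays. All 3 medians are highest on NZB_W replicate 3 (0.52, 0.73 and 1.06), and the recruited or general and pan-leukocyte medians are lowest on NZW replicate 2 (-0.64 and -0.62).

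Of 16 other resident macrophage genes measured, 7 were higher and 9 lower in NZB_W, with a median difference of -0.016. The median was -0.10 without NZB_W replicate 3, -0.12 without NZW replicate 2 and -0.22 without both. No gene of the list passed the test (limma adjusted p from 0.877 to 0.998), and 0 had all NZB_W arrays above the NZW arrays, against 6.64% of all genes. Over all genes, 48.6% were above 0. Ltc4s, leukotriene C4 synthase, differed by -0.17 with overlap and Cd209f, a C-type lectin, by -0.15 without it. Cd209f was the 1 gene of 16 with all NZB_W arrays below both NZW arrays, against 7.48% of all genes.

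For the pan-leukocyte and pan-macrophage genes, 19 of 19 differences were above 0, with a median of 0.79. All NZB_W arrays exceeded both NZW arrays in 17, against 6.64% of all genes, and 2 reached an unadjusted p under 0.05 in limma, both higher, against 2.1% of all genes higher, 2.47% lower and 4.57% in either direction. This list was written with earlier results of these data known, so its direction is not independent evidence, and no member passed the test over all probe sets (adjusted p from 0.877 to 0.896). C1qb, a complement C1q chain, read 9.46, 9.20 and 10.12 in NZB_W hearts against 8.76 and 8.40 in NZW hearts on its brightest probe set, a difference of 1.01 (SE 0.32). Trem2, a lipid-sensing receptor, differed by 0.29 on its brighter probe set and by 0.054 on the other, both dim. The list's median difference was 0.40 without NZB_W replicate 3 and 0.33 without NZW replicate 2 as well, and every gene was highest on NZB_W replicate 3.

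Of 11 measured monocyte genes, 10 had a difference above 0, the list median being 0.15, and 1 had non-overlapping groups, again against 6.64% of all genes. Only 6 of the 11 exceeded the array median on 2 arrays, and 3 lay below the lower quartile on every array. The median was 0.080 without NZW replicate 2. Nr4a1, an immediate early factor needed by patrolling monocytes and made by many cells, differed by 0.85 (SE 0.32, adjusted p = 0.877) and by 0.43 without NZW replicate 2. Ccr2, the chemokine receptor of monocytes that enter tissue, differed by only 0.17 on its brightest probe set (1460067_at), where the groups overlapped. On its other 3 probe sets the groups did not overlap. The one labelled 1421187_at read 5.19, 4.74 and 6.09 in NZB_W hearts against 4.20 and 4.21 in NZW hearts, a difference of 1.14 (SE 0.43). The others differed by 1.56 (SE 0.93, 1421186_at) and 0.66 (SE 0.28, 1421188_at), all with an adjusted p of 0.877. Without NZB_W replicate 3 these 3 differences were 0.76, 0.72 and 0.47.

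**Figure D4:**
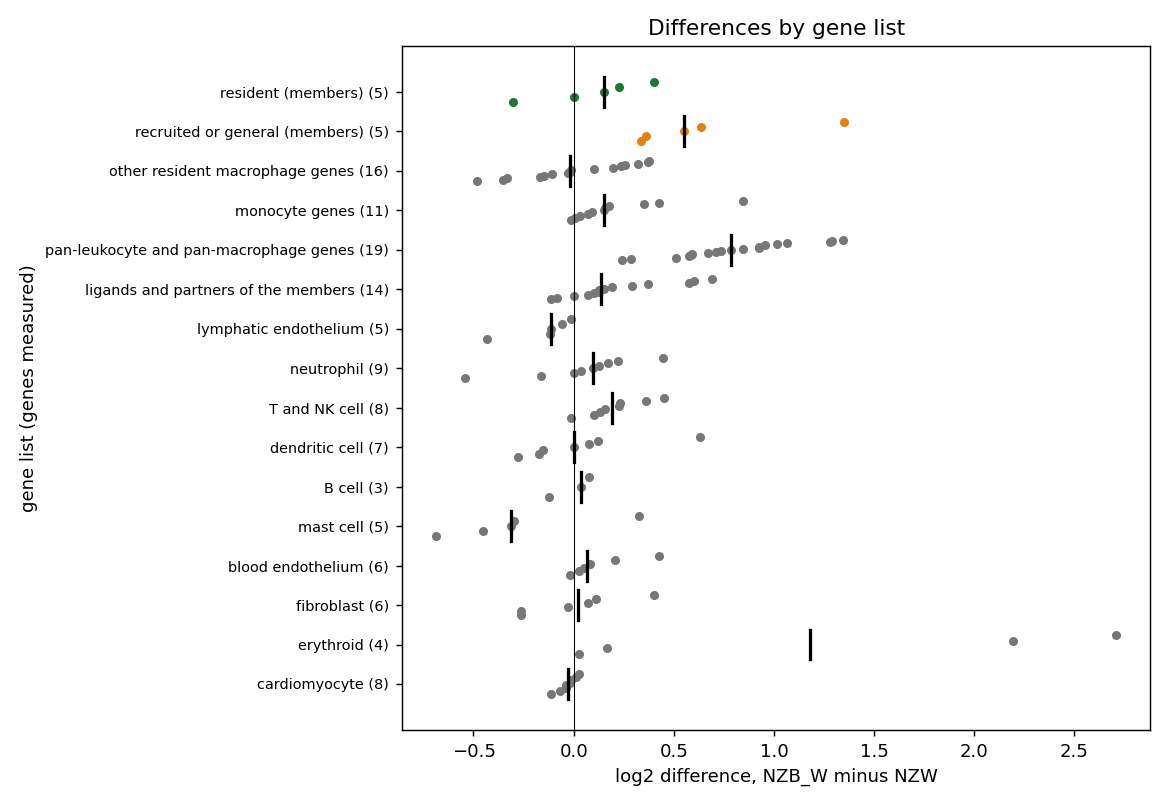
Log2 difference, NZB_W minus NZW, of each measured gene by list (1 point per gene at its brightest probe set, with the list median as a bar). The 19 pan-leukocyte and pan-macrophage genes all lie above 0 with a median of 0.79, the resident markers straddle 0 around 0.15, and the recruited or general markers centre on 0.55.

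Ligands and partners of the markers were examined by role. Of 14 measured, 11 differences were above 0 and 3 below, with a median of 0.14, and 3 genes had all NZB_W arrays above both NZW arrays (Tlr4, Itgb2 and the dim Tyro3), against 6.64% of all genes. The list median was 0.085 without NZW replicate 2 and 0.016 without NZB_W replicate 3 as well. Tlr4, the receptor that Cd14 serves, read 6.98, 7.11 and 7.15 in NZB_W hearts against 6.53 and 6.25 in NZW hearts. The groups were apart and the spread within each was small. The mean was 7.08 ± 0.0856 (SD, n = 3) in NZB_W hearts and 6.39 ± 0.200 (SD, n = 2) in NZW hearts, or 1.61-fold higher in NZB_W. The difference was 0.69 (SE 0.11, limma adjusted p = 0.877). Further Tlr4 probe sets differed by 0.90 (SE 0.25) and 0.73 (SE 0.24) without overlap, and a dim one by 0.19 (SE 0.15) with overlap. Without NZB_W replicate 3 and NZW replicate 2 these 4 differences were 0.52, 0.69, 0.43 and 0.15.

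The remaining members of the Cd14 receptor complex did not share that separation. Ly96, the MD-2 subunit of the Tlr4 receptor, differed by -0.11 and Lbp, the plasma protein that loads Cd14, by 0.60 (SE 0.29) with overlapping groups, or 0.18 without NZB_W replicate 3 and NZW replicate 2. Itgb2, the beta chain that pairs with Itgam, read 6.68, 6.59 and 7.41 in NZB_W hearts against 6.50 and 6.14 in NZW hearts. It did not overlap and differed by 0.58 (SE 0.31), but by 0.14 without NZB_W replicate 3 and NZW replicate 2. Icam1, a ligand of this integrin on endothelium, differed by -0.085, and by -0.33 without NZB_W replicate 3.

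The growth factors that act on Csf1r were not shifted in 1 direction. Csf1 had 4 probe sets, which differed by 0.29, -0.018, -0.50 and -0.38, the last without overlap and lower in NZB_W. The first was 0.055 without NZB_W replicate 3. Il34, the other ligand, was dim at 3.75 to 3.96. Cx3cl1, the ligand of Cx3cr1, differed by 0.15 on its brightest probe set, and its dimmer ones by -0.20 to 0.095. For Mertk, the bridging ligands Gas6 and Pros1 differed by 0.37 and 0.072, and the related receptors Axl and Tyro3 by 0.19 and 0.13. Gas6 differed by 0.034 without NZW replicate 2 and by -0.11 without both arrays that stood apart, and Pros1 by -0.16 without NZB_W replicate 3. Axl differed by 0.078 without NZB_W replicate 3, and Tyro3 by 0.067 without NZW replicate 2. Each had an adjusted p of at least 0.877.

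Neutrophil genes, which share Itgam and Cd14, were higher in 6 of 9 and lower in 2, with a median difference of 0.096, and in 0 of 9 did the groups stand apart, against 6.64% of all genes above and 7.48% below. The summed linear level of the list was 158 to 309.3 in NZB_W hearts against 199.5 to 217.7 in NZW hearts. The abundant neutrophil transcripts S100a8 and S100a9 differed by -0.54 (SE 0.73) and -0.16 (SE 0.72), with NZB_W replicate 2 the lowest and NZB_W replicate 3 the highest for both. Without NZB_W replicate 3 these differences were -1.16 and -0.74, and -1.37 and -0.81 without NZW replicate 2 as well. By the naming rule, Cxcr2 and Ngp differed by 0.22 and 0.17, Cxcr2 by 0.077 without NZW replicate 2.

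T and natural killer cell genes were higher in 7 of 8, with a median difference of 0.19. In 3 of 8 (Nkg7, Gzma and Gzmb) all NZB_W arrays lay above both NZW arrays, against 6.64% of all genes. The list had summed linear levels of 183.7 to 209.2 in NZB_W hearts against 170.0 to 175.7 in NZW hearts. All but 1 of the genes were dim, and Gzmb, a cytotoxic granule protease, read 4.22 to 4.43 in NZB_W hearts against 3.82 to 4.05 in NZW hearts (0.36, adjusted p = 0.877). Their part in the Itgam difference was not tested.

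Lymphatic endothelial genes, which share Lyve1, were lower in NZB_W in 5 of 5, with a median difference of -0.11, and 2 of them without overlap, against 7.48% of all genes. Their summed linear level was 436.3 to 490.4 in NZB_W hearts against 503.7 to 509.7 in NZW hearts. Reln, an extracellular protein of lymphatic vessels, read 6.07, 6.27 and 6.36 in NZB_W hearts against 6.61 and 6.73 in NZW hearts (-0.43, SE 0.10, limma adjusted p = 0.877). Both Lyve1 probe sets had a difference of the same sign as this list, and its part in the Lyve1 values was not tested.

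The genes whose 5 values ran closest to each marker group were found among 11790 other genes, by the root mean square difference of centred log2 values over the 5 arrays. Nearest to the resident profile were Vcam1, Rcn1 and Mast4, at 0.034, 0.034 and 0.036. Nearest to the recruited or general profile were Lyz2, Lyz1 and Arhgap30, at 0.042, 0.043 and 0.053. Lyz1 and Lyz2 are near-identical lysozyme genes whose probe sets can take each other's transcripts, so they may count once. With 5 arrays and this many candidates, such likeness is a description of these arrays.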

How the data were processed

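Whole-heart RNA from 3 NZB_W and 2 NZW mice was hybridised as biotinylated cRNA from 6 µg of total RNA, per the labels' protocols. The deposited values are log2 expression levels, 1 per probe set and array. RMA, GCRMA and Partek are listed in the submitters' processing notes with neither role nor version, and which of them made the values was not given in the sources used here. There were 0 columns of no sample. Groups and replicate numbers come from the titles, which call the arrays biological replicates.

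Of 45101 probe sets, 64 controls were left out. Symbols come from GEO's platform annotation, which gives 1 symbol to 34945 of the other probe sets, several to 932 and none to 9160. The 10 marker symbols matched RefSeq. All 45037 probe sets were fitted without a filter with limma 3.58.1 in R 4.3.3 (lmFit, eBayes, two-sided, no covariates), Benjamini-Hochberg adjusted over all, at a threshold of 0.05. SE and 95% intervals are limma's moderated ones, with 1.19 prior and 3 residual degrees of freedom. An exact permutation of 3 against 2 arrays cannot give a two-sided p below 0.1, so none was run. On simulated data for this comparison over 45037 probe sets, 49.3%, 82.1% and 84.8% of changes of 1, 2 and 3 were called, with 4 false calls. The changed probe sets were drawn at random, with independent normal noise at each one's own SD. The median SE over all probe sets was 0.094, against 0.073 to 0.52 for the marker probe sets. These shares therefore do not give the power for the markers.

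The markers, lists and rules were chosen with earlier results of these data known. Lists use each gene's brightest probe set. Genes named from a list are those with an unadjusted p under 0.05, or else the 2 with the smallest p, and direct partners of a marker. Dimmer probe sets of Ccr2, Tlr4, Csf1, Cx3cl1, Zbtb46, Myh6, Tnnt2 and Ryr2 were added after their values were seen. So were S100a8, S100a9, Slc4a1, Epb42, Hba-a1, Nkg7, Gzma, Tcf21, Col1a1 and Col1a2. The lists were other resident macrophage, monocyte, pan-leukocyte and pan-macrophage, ligands and partners, lymphatic endothelium, neutrophil, T and NK cell, dendritic cell, B cell, mast cell, blood endothelium, fibroblast, erythroid and cardiomyocyte genes, of which the measured members are counted. Alternatives covered the dim filter, quantile normalization, median centring, variance model, array weights, a block on replicate number, 1 probe set per gene, probe set choice, subtraction of the pan-leukocyte median, thresholds and left-out arrays. Figures were drawn with matplotlib 3.10.9.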

Additional observations from a re-analysis of the deposited data

How the results depend on the processing

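No marker probe set was called at an adjusted p of 0.05 in any setting run, a threshold of 0.1 included; the lowest adjusted p was 0.327, for Cd14 without NZW replicate 1. Over all probe sets, 2 were called, against 5 with the dim filter, 5 with quantile normalization, 6 with median centring, 5 with an intensity trend and robust prior, 4 with array weights, 1 with 1 probe set per gene, 5 at a threshold of 0.1, and 0 with any single array or both arrays that stood apart left out. Settings that leave 1 NZW array assume that it varies like the NZB_W arrays.

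The replicate block, which pairs numbers 1 and 2, left 0 probe sets called. Same-numbered arrays deviated together at r = -0.013 and 0.028 over probe sets, so the numbers were not taken as pairs. NZB_W replicate 3 has no NZW partner under the block, so the block's marker differences repeat those without that array. They were -0.068, -0.082 and -0.10 for Cd163, Mertk and the brighter Cx3cr1 probe set.

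Marker differences kept their sign in 157 of 175 combinations of probe set and setting. The dim filter, the intensity trend with robust prior and 1 probe set per gene leave a difference unchanged by construction. The replicate block repeats the setting without NZB_W replicate 3, so this count does not measure robustness. Itgam stayed between 1.18 and 1.51 and Cd14 between 0.37 and 0.91. Without NZB_W replicate 3 and NZW replicate 2, signs turned for Cd163 (-0.092), Mrc1 (-0.063), Mertk (-0.082), 2 Csf1r probe sets (-0.021 and -0.017), Cd68 (-0.10) and Cx3cr1 (-0.086), and Csf1r 1419873_s_at was 0. Lyve1 1429379_at was -0.85 there. With any single array left out, it ran from -0.81 to 0.20, Mrc1 from 0.073 to 0.61, the Csf1r probe sets from 0.23 to 0.86, 0.14 to 0.51 and 0.13 to 0.44, Folr2 from -0.073 to 0.040 (-0.013 with median centring), Cd163 from -0.068 to 0.42, Mertk from -0.082 to 0.31 and Cx3cr1 1450020_at from -0.10 to 0.67.

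The resident median difference of 0.15 ran from -0.068 to 0.31 with any single array left out and was -0.082 without both arrays. The recruited or general one of 0.55 ran from 0.29 to 0.86 and was -0.021 without both. The resident minus recruited median of -0.43 ran from -0.66 to -0.24 with any single array left out, -0.66 being without NZW replicate 1, and was -0.15 without both. After subtraction of the pan-leukocyte median the resident and recruited differences were -0.64 and -0.24. That subtraction lowers every gene by 0.79 between the groups, and 88.0% of all genes then had all NZB_W arrays below both NZW arrays, so nothing is read from it. Dim values limit the folds of Itgam and Cx3cr1, and no detection calls were available here.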

Other observations

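Markers of further cell types are given as values. Mast cell genes were lower in NZB_W hearts in 4 of 5, with a median difference of -0.31 (-0.60 without NZW replicate 2, -0.50 without NZB_W replicate 3 as well), and 2 had non-overlapping groups, against 7.48% of all genes. Cpa3, carboxypeptidase A3 of mast cell granules, read 5.29, 5.19 and 5.03 in NZB_W hearts against 6.08 and 5.64 in NZW hearts (-0.69, SE 0.16, limma adjusted p = 0.877).

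Of 6 fibroblast genes, 3 were higher and 3 lower, with a median of 0.021 (-0.26 without NZB_W replicate 3). All NZB_W arrays lay below both NZW arrays in 2 of 6, against 7.48% of all genes. These were Lum, the matrix proteoglycan lumican, and Tcf21, each at -0.26. The collagen genes Col1a1 and Col1a2 read 9.69 and 11.75 on NZB_W replicate 3, against 6.79 to 7.67 and 9.14 to 10.09 on the other arrays. The 6 blood endothelial genes had a median of 0.068, and -0.016 without NZB_W replicate 3. All NZB_W arrays lay above both NZW arrays in 2 of 6, against 6.64% of all genes. These were the junction proteins Pecam1 and Cdh5, at 0.43 and 0.21. Pecam1 differed by 0.15 without NZW replicate 2 and by 0.024 without both arrays, and Cdh5 by 0.10 without NZB_W replicate 3.

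Dendritic cells share several of the macrophage markers. The 7 dendritic cell genes had a median of 0, with the integrin Itgax at 0.63 (0.38 without NZB_W replicate 3). The transcription factor Zbtb46 differed by -0.28 on its brightest probe set (-0.0098 without NZW replicate 2). Its dimmer probe sets differed by 0.072, 0.070 and 0.13, each with overlap. The 3 B cell genes had a median of 0.038, with Cd79a at 0.078 and Ms4a1 at -0.12 (-0.51 without NZW replicate 2), all dim. Of 4 erythroid genes, all were higher, with a median of 1.18, the largest of the lists, and in 3 all NZB_W arrays lay above both NZW arrays, against 6.64% of all genes. Epb42 and Hba-a1 were dim and differed by only 0.025 and 0.16. Hba-a1, at 2.79 to 3.07 over the arrays, is among the 3. Their summed linear level was 1013, 291.6 and 1453 in NZB_W hearts against 184.3 and 162.5 in NZW hearts, highest on NZB_W replicates 1 and 3. The difference was 2.71 for Slc4a1, the band 3 protein of red cells. Alas2, the erythroid enzyme of heme synthesis, read 9.70, 7.90 and 10.11 in NZB_W hearts against 7.14 and 6.95 in NZW hearts. None of these lists held a gene with an adjusted p under 0.05 by limma.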
